A study of Bos taurus with 28 samples.

Results

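Mitochondrial fatty acid oxidation was followed in the bovine mammary gland through 10 genes, CPT1A, CPT1B, CPT2, ACADM, ACADVL, ACADS, HADHA, HADHB, ECHS1 and ACAA2. Members were all probe sets to which the platform annotation gives exactly 1 gene symbol from this list. The rule found 9 probe sets among the 24016 that were tested, 1 for each of 9 genes, out of 9155 genes that the annotation names. CPT1A had no probe set under its symbol and was not analysed here. No measured value entered the rule that picked the probe sets, but the genes were chosen with earlier results of these data known.

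Long-chain fatty acids enter the mitochondrion bound to carnitine. The carnitine palmitoyltransferases of the outer membrane, CPT1A and CPT1B, attach the carnitine, and CPT2 at the inner membrane turns the acylcarnitine back into acyl-CoA. Each round of the oxidation spiral then uses an acyl-CoA dehydrogenase, an enoyl-CoA hydratase, a hydroxyacyl-CoA dehydrogenase and a thiolase, and releases acetyl-CoA. The lactating gland is known above all for the opposite route, the synthesis and secretion of fatty acids as milk triacylglycerol.

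The samples were mammary biopsies, taken by surgery from 28 Holstein-Friesian cows in the middle of lactation. All cows received the control diet, a mixed ration of maize silage, grass silage and concentrates. The groups were genotypes of DGAT1, whose enzyme completes triacylglycerol synthesis: 11 AA cows with alanine on both alleles at the variable residue, 13 KA cows with alanine and lysine, and 4 KK cows with lysine on both. Each cow gave 1 Affymetrix Bovine Genome Array, so the cow is the replicate and the spread between arrays holds biological and technical variation together. The design asks which transcripts differ with the genotype, and the number of arrays, above all of KK, limits the precision.

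The values are on a log2 scale, with a baseline already subtracted from every probe set. Levels can therefore be compared between cows but not between genes. A coarse class of signal could still be read from the rounding of the values: ACADM and ECHS1 were bright, with log2 signals of at least 8 throughout, CPT1B was dim, under 4 in at least 1 array or in its baseline, and the other 6 lay between. The defining markers of the labelled tissue were in place, since all 7 milk protein genes, the caseins among them, were in the bright class. A biopsy mixes cell types, so that fewer cells of a type and less RNA per cell cannot be told apart.

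The arrays AA 2 and AA 9 had low milk fat genes and a wide spread of values. Over probe sets their SD was 0.861 and 0.780, while no other array was outside 0.213 to 0.348. They were picked by their measured values, so they form no group, and results that rest on them are given with and without them. Genotype and the array numbers in the sample titles were not independent. Of the lower numbers, 29 to 42, 8 were AA, 2 were KA and 4 were KK, and of the upper numbers, 43 to 56, 3 were AA, 11 were KA and 0 were KK.

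**Figure D1:**
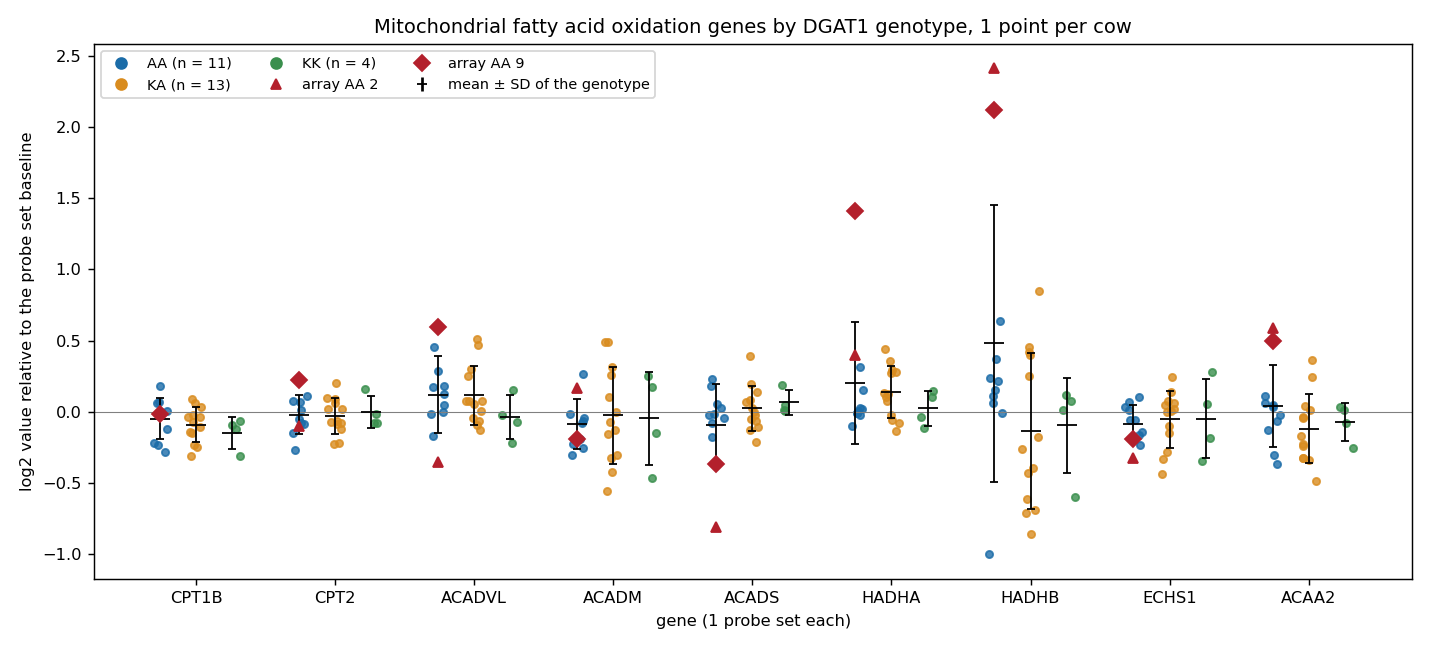
Log2 values of the 9 members relative to each probe set's baseline, 1 point per cow, by DGAT1 genotype (11 AA, 13 KA and 4 KK cows). Black bars give the mean and SD of a genotype, and red symbols mark the arrays AA 2 and AA 9, which reach 2.42 and 2.12 for HADHB while the other cows stay between -1.01 and 0.85.

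Of the carnitine palmitoyltransferases, both varied little between cows and their genotype ranges overlapped. CPT1B, the isoform known from muscle, ranged from -0.28 to 0.18 in AA (median -0.0020), from -0.31 to 0.09 in KA (median -0.07), and was -0.09, -0.06, -0.31 and -0.12 in the 4 KK arrays. In the order AA, KA and KK its means were -0.05 ± 0.15 (SD, n = 11), -0.09 ± 0.12 (SD, n = 13) and -0.15 ± 0.11 (SD, n = 4). All 4 KK cows were below 0. KK 3 was the lowest of the 28 cows, and the other KK cows lay within the range of both other genotypes.

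CPT2 ranged from -0.27 to 0.22 in AA (median -0.05), from -0.23 to 0.20 in KA (median -0.07), and was 0.16, -0.08, -0.08 and -0.02 in KK. Its SD over the 26 arrays without AA 2 and AA 9 was 0.118, smaller than that of most probe sets on the array: 4.94% had a smaller one. CPT2 thus differed little from cow to cow whatever the genotype.

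The acyl-CoA dehydrogenases ACADVL, ACADM and ACADS open the spiral for very long, medium and short chains. ACADVL ranged from -0.35 to 0.60 in AA (median 0.12), with AA 2 lowest and AA 9 highest. It ranged from -0.13 to 0.51 in KA (median 0.07) and was -0.22, -0.02, 0.15 and -0.07 in KK. The means were 0.12 ± 0.27 (SD, n = 11), 0.11 ± 0.21 (SD, n = 13) and -0.04 ± 0.15 (SD, n = 4), and the groups overlapped.

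ACADM, the bright member of the 3, ranged from -0.30 to 0.27 in AA (median -0.08) and from -0.56 to 0.49 in KA (median -0.07). In the KK arrays it was 0.17, 0.25, -0.15 and -0.47. The KK cows were spread over most of the KA range, and the means of -0.09 ± 0.18 (SD, n = 11), -0.03 ± 0.34 (SD, n = 13) and -0.05 ± 0.33 (SD, n = 4) lay closer together than the cows within any group.

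ACADS ranged from -0.81 to 0.23 in AA (median -0.03), with AA 2 and AA 9 at the bottom, and from -0.21 to 0.39 in KA (median -0.0037). The 4 KK arrays read 0.19, 0.01, 0.05 and 0.0037. All KK cows were above 0 and within the range of both other genotypes, and the means of -0.10 ± 0.29 (SD, n = 11), 0.02 ± 0.16 (SD, n = 13) and 0.06 ± 0.09 (SD, n = 4) differed by less than the SD within AA.

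HADHA and HADHB encode the alpha and beta subunits of the mitochondrial trifunctional protein, which carries the hydratase and dehydrogenase activities on the first and the thiolase on the second. The RefSeq gene table of assembly ARS-UCD2.0 places the 2 genes next to each other with no other gene between. HADHA ranged from -0.10 to 1.41 in AA (median 0.02), where AA 9 was highest and AA 2 next at 0.40. It ranged from -0.14 to 0.44 in KA (median 0.12) and was -0.12, 0.15, -0.04 and 0.10 in KK.

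HADHB ranged from -1.01 to 2.42 in AA (median 0.21), from -0.86 to 0.85 in KA (median -0.26), and was -0.60, 0.01, 0.08 and 0.12 in the 4 KK arrays. Its means were 0.48 ± 0.97 (SD, n = 11), -0.14 ± 0.55 (SD, n = 13) and -0.10 ± 0.34 (SD, n = 4) in the order AA, KA and KK. The highest AA cows were AA 2 and AA 9, the lowest was AA 1, and the KA and KK cows lay between them. HADHB varied more than any other member: over the 26 arrays without AA 2 and AA 9 its SD was 0.485, and 96.5% of probe sets had a smaller SD. The same share for its partner HADHA, with an SD of 0.158, was 23.0%.

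ECHS1, the short-chain enoyl-CoA hydratase, ranged from -0.33 to 0.10 in AA (median -0.06) and from -0.44 to 0.24 in KA (median 0.00045), and was 0.28, -0.18, 0.05 and -0.35 in KK. KK 1 was the highest of the 28 cows, and the genotype means of -0.09 ± 0.14, -0.06 ± 0.20 and -0.05 ± 0.28 (SD, n = 11, 13 and 4) sat inside the spread of the KK cows alone.

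ACAA2, a mitochondrial thiolase that cuts off acetyl-CoA, ranged from -0.37 to 0.59 in AA (median 0.03), with AA 2 and AA 9 at the top. It ranged from -0.49 to 0.36 in KA (median -0.17) and was 0.03, -0.08, 0.01 and -0.26 in KK. The means were 0.04 ± 0.29 (SD, n = 11), -0.12 ± 0.24 (SD, n = 13) and -0.08 ± 0.13 (SD, n = 4), and the groups overlapped.

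No member passed the threshold of 0.05 on the Benjamini-Hochberg adjusted p of limma in any of the 5 genotype comparisons. The background was 0% of the 24016 probe sets in each pairwise contrast of genotypes and in the slope per K allele. For KA against the midpoint of the homozygotes it was 0.00416%, a single probe set that is no member. At an unadjusted p under 0.05, HADHB alone of the 9 was called, downward in KA minus AA. There the background of such calls was 21.8% of probe sets, 11.1% downward, so that 1 of 9 is near it.

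HADHB was 0.62 lower in KA than in AA on the log2 scale, 1.54-fold, with a limma estimate of -0.62 (SE 0.28, 95% confidence interval -1.20 to -0.04, p = 0.0373, adjusted p = 0.211). It was lower in KK than in AA by a similar amount, with an estimate of -0.58 (SE 0.40, limma adjusted p = 0.909, interval -1.41 to 0.25), where the unadjusted background was 3.51%. KK minus KA was 0.04 (SE 0.40), with an unadjusted background of 2.84%. Both AA contrasts share the AA arrays, AA 2 and AA 9 among them.

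Without AA 2 and AA 9, HADHB was -0.22 in KA minus AA (SE 0.20, limma p = 0.274, adjusted p = 0.765, with an unadjusted background of 9.5%). It was -0.18 in KK minus AA (SE 0.28, limma adjusted p = 0.9999). The unadjusted call in KA minus AA was also lost when AA 2, AA 5, AA 9, KA 1, KA 4, KA 6, KA 7, KA 8 or KA 11 was left out singly. The estimate then stayed between -0.77 and -0.43 over all single omissions. Within array numbers 29 to 42, KK minus AA was -0.45 with AA 2 and -0.15 without it, and KA minus AA, from 2 KA cows, was -0.43 and -0.14. Within numbers 43 to 56, KA minus AA was -0.98 with AA 9 and -0.33 without it, from 2 AA cows. When limma was fitted with the 2 ranges of array numbers as a block, KA minus AA was -0.76 (SE 0.35). With the mean of 15 milk fat genes as a covariate it was -0.11 (SE 0.18).

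The additive model counted the K alleles of a cow as 0, 1 or 2. Slopes were above 0 for 4 members and below 0 for 5, with a median of -0.05 log2 per allele, while 49.5% of the 9155 genes had slopes above 0. HADHB had the steepest at -0.37 per allele (SE 0.19, limma p = 0.0626, adjusted p = 0.526), which was -0.12 (SE 0.13) without AA 2 and AA 9, where 3.26% of probe sets had an unadjusted p under 0.05 and no member did. ACADS was next at 0.09 (SE 0.06, adjusted p = 0.540), and 0.02 without the pair. The slope was -0.08 for HADHA and for ACAA2, -0.06 for ACADVL, -0.05 for CPT1B, 0.03 for ACADM, 0.02 for ECHS1 and 0.0057 for CPT2. None had an unadjusted p under 0.05, against 9.16% of all probe sets. HADHB was called at that limit when AA 1 or KK 4 was left out. Of the 24016 probe sets, 1841 were then called upward and 1870 downward without AA 1, and 1353 and 1211 without KK 4.

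**Figure D2:**
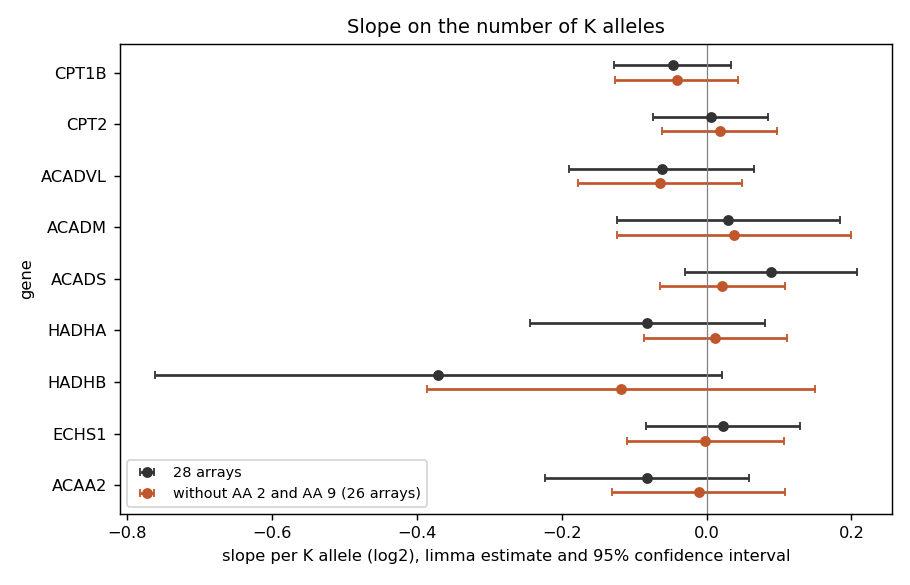
Slope on the number of K alleles in log2 per allele for each member, with the limma estimate as a point and its 95% confidence interval as a bar, over 28 arrays (dark) and without AA 2 and AA 9 (orange). Every interval holds 0, and HADHB moves from -0.37 to -0.12 when the pair is left out.

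The intervals, from the fit without covariates, say how large a genotype difference in the measured values these arrays leave room for. For CPT2 the slope interval ran from -0.07 to 0.09 log2 per allele and for CPT1B from -0.13 to 0.03. CPT1B was dim and its signal over background is unknown, so its interval may not bound a difference in the transcript. For ECHS1 it ran from -0.08 to 0.13, for ACADM from -0.12 to 0.18 and for ACADVL from -0.19 to 0.07. For HADHB the interval reached -0.76. KA minus the midpoint of the homozygotes lay between -0.33 in HADHB (SE 0.28) and 0.07 in ACADVL (SE 0.09), and no member had an unadjusted p under 0.05 against 9.81% of probe sets.

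In the deposited values the arrays with low milk fat genes lay outside the range of the rest in some members. HADHB was 2.42 in AA 2 and 2.12 in AA 9, while the other 26 arrays ran from -1.01 over a median of 0.07 to 0.85. That put HADHB 5.09-fold and 4.15-fold above the median of the others, with no overlap. ACAA2 was 0.59 and 0.49, above the range of -0.49 to 0.36 (median -0.06) and 1.56-fold and 1.47-fold over the median. With quantile normalization HADHB was 0.86 and 0.80, only just above the highest of the others at 0.71. ACAA2 was then 0.19 and 0.17, inside the range of the others, which reached 0.37.

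ACADS went the other way. It was -0.81 in AA 2 and -0.37 in AA 9, below the range of -0.21 to 0.39 (median 0.01), or 1.77-fold and 1.30-fold under the median. HADHA was split, since AA 9 at 1.41 was 2.56-fold above the median of 0.05 and above all others, and AA 2 at 0.40 was below KA 5 at 0.44. ACADVL was split in direction: AA 2 at -0.35 lay below and AA 9 at 0.60 above the others, which ran from -0.22 to 0.51.

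CPT2 was -0.10 in AA 2, inside the range of -0.27 to 0.20, and 0.22 in AA 9, just above it. ECHS1 was -0.33 and -0.20, ACADM 0.16 and -0.20, and CPT1B 0.0020 and -0.02, all inside the range of the other arrays. The 2 arrays thus lay on the same side outside all others in 3 of 9 members, 1 below and 2 above. Over all probe sets the shares were 17.7% below and 18.4% above, together 36%, so the members' count is near the background. With quantile normalization between arrays the counts were 0 below and 1 above, HADHB. With each array centred on its median they were 1 below and 3 above, with HADHA as the third.

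Markers of cell types moved with these arrays. The mean over 10 fibroblast and matrix genes was 1.16 and 1.67 in the pair and -0.55 to 0.46 elsewhere, with 8 of the 10 genes above all other arrays in both. The mean of 11 luminal epithelial genes was 0.54 and 0.65, against -0.44 to 0.40, with 5 of 11 above and 2 below. The mean of 7 milk protein genes was -0.67 and -1.65, against -0.29 to 0.09, with 6 of 7 below. The T and natural killer cell mean was 0.58 and 0.66, against -0.32 to 0.53, with 2 of 10 genes above and 1 below. The myoepithelial mean was 0.55 and 0.99, against -0.56 to 0.66, so that AA 9 alone was outside, with 3 of 8 genes above. The means of endothelial, B and plasma cell, and macrophage and neutrophil genes lay inside the range in both arrays. With quantile normalization 0 of the fibroblast, luminal, T cell and myoepithelial genes lay outside in both arrays, and 2 of 7 milk protein genes lay below. Their part in the values of the fatty acid oxidation genes was not tested. Of 12 genes of muscle, a tissue rich in fatty acid oxidation, 1 lay below all other arrays and 0 above, and of 8 adipocyte genes 1 lay below and 1 above. The muscle mean was 0.08 in AA 2, inside the range of -0.09 to 0.15, and 0.28 in AA 9, above it. The adipocyte mean was -0.20 in AA 2, below the range of -0.15 to 0.21, and 0.19 in AA 9, inside it. With quantile normalization the muscle and adipocyte means lay inside in both arrays.

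The other genes of fatty acid oxidation and of neighbouring pathways were described from lists chosen by function. Beside their counts and those of the marker lists, the shares over all probe sets were 17.7% below and 18.4% above, together 36%. No list was tested against these shares. Of 7 measured genes that supply or carry carnitine, 2 lay above all other arrays in AA 2 and AA 9 and 1 below. CROT, which makes medium-chain acylcarnitines in peroxisomes, was 2.46 and 2.25 (others -1.44 to 1.71). SLC25A20, the translocase that brings acylcarnitines across the inner membrane, was 1.21 and 0.58 (others -0.78 to 0.49). CRAT, the acetyltransferase, was -0.46 and -0.30 (others -0.17 to 0.45).

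Of 16 other oxidation enzymes of the matrix, 4 lay below and 1 above. ECI1, an isomerase for unsaturated chains, was -1.14 and -0.96 (others -0.17 to 0.34). HSD17B10, a short-chain hydroxyacyl-CoA dehydrogenase, was -2.27 and -0.74 (others -0.35 to 0.42). The thiolase ACAT1 was the one above, at 0.97 and 0.80 (others -0.43 to 0.48).

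Of 11 peroxisomal oxidation genes, 5 lay above and 0 below. ABCD3, a transporter of the peroxisomal membrane, was 2.79 and 2.37 (others -0.74 to 0.79), and ACOX3, an acyl-CoA oxidase, was 1.29 and 1.93 (others -0.66 to 1.05). ABCD3 was dim, as were ACACB and ACADL named below, and their signal over background is unknown. Of 3 ketone body genes, 2 lay below: BDH1, the hydroxybutyrate dehydrogenase, at -3.01 and -4.03 (others -1.20 to 1.11), and AACS, which activates acetoacetate, at -1.29 and -0.90 (others -0.48 to 0.81).

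Of 19 regulators, 4 lay below, among them ACACB, whose product malonyl-CoA inhibits carnitine palmitoyltransferase 1, at -0.44 and -0.49 (others -0.22 to 0.38), and PPARG, a nuclear receptor, at -0.75 and -1.02 (others -0.53 to 0.41). ACACA was also below, at -1.52 and -1.40 (others -0.34 to 1.34), and is counted in the fatty acid synthesis list too. SIRT5, a mitochondrial deacylase, was the 1 above, at 1.23 and 1.53 (others -0.64 to 1.02). Of 43 respiratory chain and ATP synthase genes 3 lay below and 11 above, and of 15 citrate cycle genes 2 below and 4 above. Of 13 fatty acid synthesis genes 8 lay below and 2 above, and of 15 milk fat genes 13 below and 0 above. The pair was picked by its low milk fat genes, so the milk fat count and mean follow from that choice and are no separate result. The mean of the 9 members was 0.22 and 0.45, above the range of -0.21 to 0.13, but with quantile normalization AA 2 was inside it, at 0.09 against -0.21 to 0.14. Without HADHB the mean of the other 8 was -0.05 in AA 2, inside the range of -0.15 to 0.11, and 0.24 in AA 9, above it. The list means of AA 2 and AA 9 lay outside the range of the other arrays for the carnitine, peroxisomal, ketone body, regulator, synthesis and milk fat lists, and inside it for the citrate cycle and the respiratory chain. With each array centred on its median, the citrate cycle means lay above it too. With quantile normalization both means lay inside the range for the carnitine, ketone body and regulator lists. The peroxisomal mean was then inside in AA 2, at 0.11 against a highest of 0.14, and above in AA 9, at 0.23. Quantile normalization forces the same spread on every array, and with it 0 of the 7 carnitine genes lay outside, 1 of the 16 other matrix enzymes below and 0 above (ACAT1 was inside the range), 1 of the 11 peroxisomal genes above, 0 of the 3 ketone body genes outside, 1 of the 19 regulators below, 5 of the 13 synthesis genes below and 9 of the 15 milk fat genes below.

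**Figure D3:**
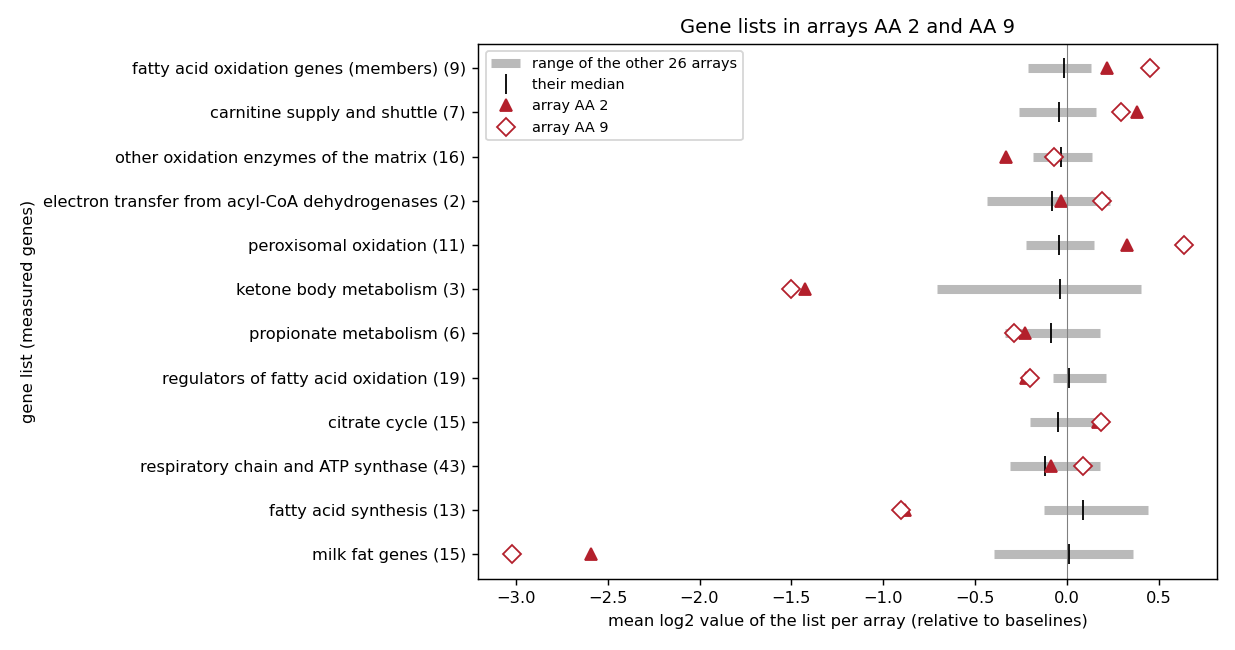
Mean log2 value of each gene list in AA 2 (triangle) and AA 9 (diamond), beside the range (grey bar) and median (tick) of the other 26 arrays, with the number of measured genes in brackets. The members average 0.22 and 0.45 against a range of -0.21 to 0.13, and without HADHB -0.05 and 0.24 against -0.15 to 0.11. Milk fat genes, by which the pair was picked, average -2.59 and -3.02, below a range of -0.40 to 0.36.

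Across genotypes no gene of these lists passed the adjusted threshold in the slope per K allele, over 28 arrays or without AA 2 and AA 9. Over 28 arrays slopes were above 0 in 3 of 7 carnitine genes (median -0.02), in 9 of 16 other matrix enzymes (median 0.0056), in 5 of 11 peroxisomal genes (median -0.0093), in 16 of 19 regulators (median 0.05), in 8 of 15 citrate cycle genes (median 0.04) and in 26 of 43 respiratory chain genes (median 0.02). They were above 0 in 10 of 13 fatty acid synthesis genes (median 0.13) and in 15 of 15 milk fat genes (median 0.41). The medians of the carnitine and the other matrix enzymes changed sign with another scaling, to 0.0041 with quantile normalization and to -0.0019 with centred arrays.

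Without AA 2 and AA 9 the milk fat median was 0.05, with 14 of 15 slopes above 0, and the synthesis median 0.03, with 8 of 13 above. The count above 0 was then 12 of 19 for regulators (median 0.02), 4 of 7 for carnitine genes (median 0.00058), 10 of 16 for the other matrix enzymes (median 0.03) and 5 of 11 for peroxisomal genes (median -0.02). It was 12 of 15 for the citrate cycle (median 0.05) and 39 of 43 for the respiratory chain (median 0.03), where 53.2% of all 9155 genes had slopes above 0. The milk fat and synthesis medians were thus smaller without the pair of arrays.

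The named genes of the lists also had smaller slopes without the pair. AACS had a slope of 0.31 (SE 0.10), SDHA, a subunit of succinate dehydrogenase, 0.18 (SE 0.06), ACAT1 -0.21 (SE 0.08) and ACADL, a long-chain acyl-CoA dehydrogenase, -0.14 (SE 0.06), all with a limma adjusted p of 0.526. Without AA 2 and AA 9 they were 0.19, 0.12, -0.10 and -0.12, each with an adjusted p of 1.

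Among the cell type lists, slopes were below 0 in 9 of 10 fibroblast and matrix genes (median -0.34), in 8 of 8 myoepithelial and smooth muscle genes (median -0.19) and in 8 of 11 luminal genes (median -0.04), and above 0 in 7 of 7 milk protein genes (median 0.11). Without AA 2 and AA 9 these counts were 10, 7, 7 and 7, with medians of -0.17, -0.14, -0.04 and 0.0077. The other lists were mixed: slopes were above 0 in 5 of 10 T and natural killer cell genes, 2 of 5 B and plasma cell genes, 8 of 14 macrophage and neutrophil genes, 6 of 8 endothelial genes, 5 of 8 adipocyte genes and 6 of 12 muscle genes. The mean of the fibroblast list ran from -0.55 to 1.67 in AA (to 0.46 without AA 2 and AA 9), from -0.40 to 0.25 in KA and from -0.48 to -0.06 in KK. The luminal list mean ran from -0.44 to 0.65 in AA (to 0.40 without the pair), from -0.36 to 0.35 in KA and from -0.26 to 0.30 in KK. The part of these markers in the HADHB slope was not tested.

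Whether the members vary together between cows was examined over the 26 arrays without AA 2 and AA 9, in 36 pairs. HADHA and HADHB were the only pair to pass. They correlated at r = 0.626 (two-sided permutation p = 0.00078, Benjamini-Hochberg adjusted over the 36 pairs 0.0281) and rho = 0.635 (permutation p = 0.00063, adjusted 0.0227). Without the 2 arrays farthest from the HADHA median r was 0.517. It was 0.730 within array numbers 29 to 42 and 0.666 within 43 to 56 (13 arrays each), 0.696 within the 9 remaining AA and 0.755 within the 13 KA arrays.

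**Figure D4:**
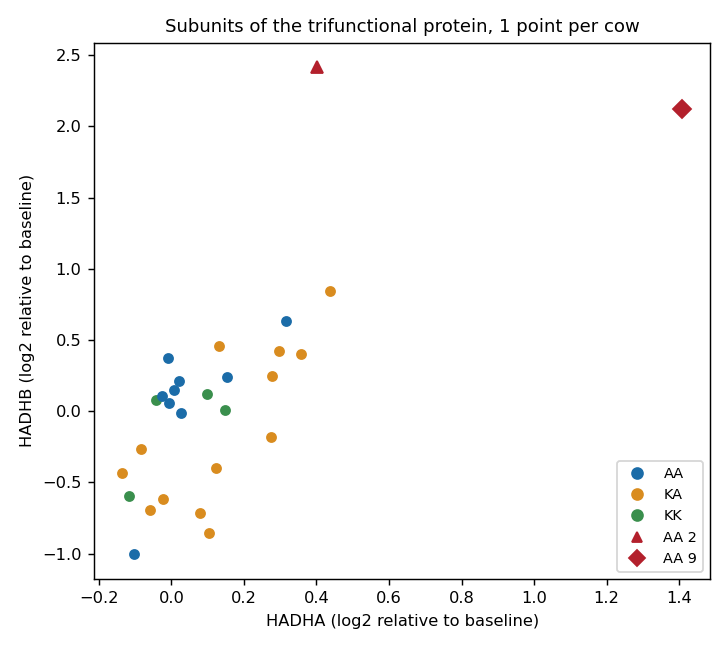
Log2 values of HADHA (horizontal) against HADHB (vertical), relative to their baselines, 1 point per cow and coloured by genotype. HADHB rises with HADHA over the 26 cows without AA 2 and AA 9 (r = 0.626), which stand at 0.40 and 1.41 in HADHA and at 2.42 and 2.12 in HADHB.

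The other pairs did not pass the adjustment. The next were ACADVL with HADHB at r = 0.496 and ACADS with ECHS1 at r = 0.494 (both with an adjusted permutation p of 0.128), and CPT1B with ACAA2 at r = -0.464 (adjusted permutation p = 0.149). Of the 36 coefficients 20 were negative and 16 positive, and 8 had an unadjusted permutation p under 0.05. Negative and positive coefficients were thus about equally frequent among these enzymes.

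By likeness to HADHA over the same 26 arrays, the genes with the highest r were DZIP1 at 0.753, CRELD2 at 0.706, TRMT61A at 0.697, MRPL38 at 0.694 and PRMT1 at 0.685. HADHB ranked 42 among all genes. Seen from HADHB, HADHA ranked 732. The genes most like HADHB, looked up after the values were seen, were STMN1 at 0.924, ANXA1 at 0.906, RAB34 at 0.885, LGALS3 at 0.882 and EBNA1BP2 at 0.881.

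Each member was then set beside the means of 11 cell type marker lists and of the milk fat list over the 26 arrays, an analysis added after the data had been seen. Of 108 pairs, 9 passed the adjustment for r, and 6 of the 9 were of HADHB. How many of the 9155 genes follow these means as closely was not computed, so the counts cannot be called particular to the members. HADHB followed the luminal epithelial mean at r = 0.855 (permutation p = 1e-05, the smallest that the resamples can give, adjusted 0.00108) and rho = 0.841 (permutation p = 2e-05, adjusted 0.00108). Without the 2 arrays farthest from the median of the luminal mean r was 0.841. It was 0.901 and 0.831 within the lower and upper array numbers, 0.899 within AA and 0.873 within KA.

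HADHB also followed the fibroblast and matrix mean at r = 0.770 (permutation p = 3e-05, adjusted 0.00162, rho = 0.780 with an adjusted p of 0.00108). Without the 2 arrays farthest from the median of the fibroblast mean r was 0.700. It was 0.832 and 0.774 within the lower and upper numbers. The luminal and fibroblast means themselves correlated at r = 0.702, so the lists do not give separate evidence. Weaker relations of HADHB were with B and plasma cell genes (r = 0.598, adjusted permutation p = 0.0259), macrophage and neutrophil genes (r = 0.576, adjusted 0.0294) and myoepithelial genes (r = 0.573, adjusted 0.0403).

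With the milk fat mean HADHB correlated at r = -0.545 (permutation p = 0.0038, adjusted 0.0456), but the adjusted p of rho was 0.0715. The relation was -0.523 and -0.577 within the lower and upper array numbers, -0.629 within KA and -0.102 within AA. The other calls were ACADVL with luminal genes at r = 0.650 (adjusted permutation p = 0.014), HADHA with luminal genes at r = 0.558 (adjusted 0.0456, and 0.0765 for rho), and ACADS with milk fat genes at r = 0.565 (adjusted 0.0403, and 0.105 for rho). The ACADS relation fell to r = 0.331 without the 2 arrays farthest from the median of the milk fat mean. The value over 26 arrays thus rests on them. The relation was 0.634 and 0.502 within the lower and upper array numbers, 0.659 within KA and 0.301 within AA.

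**Figure D5:**
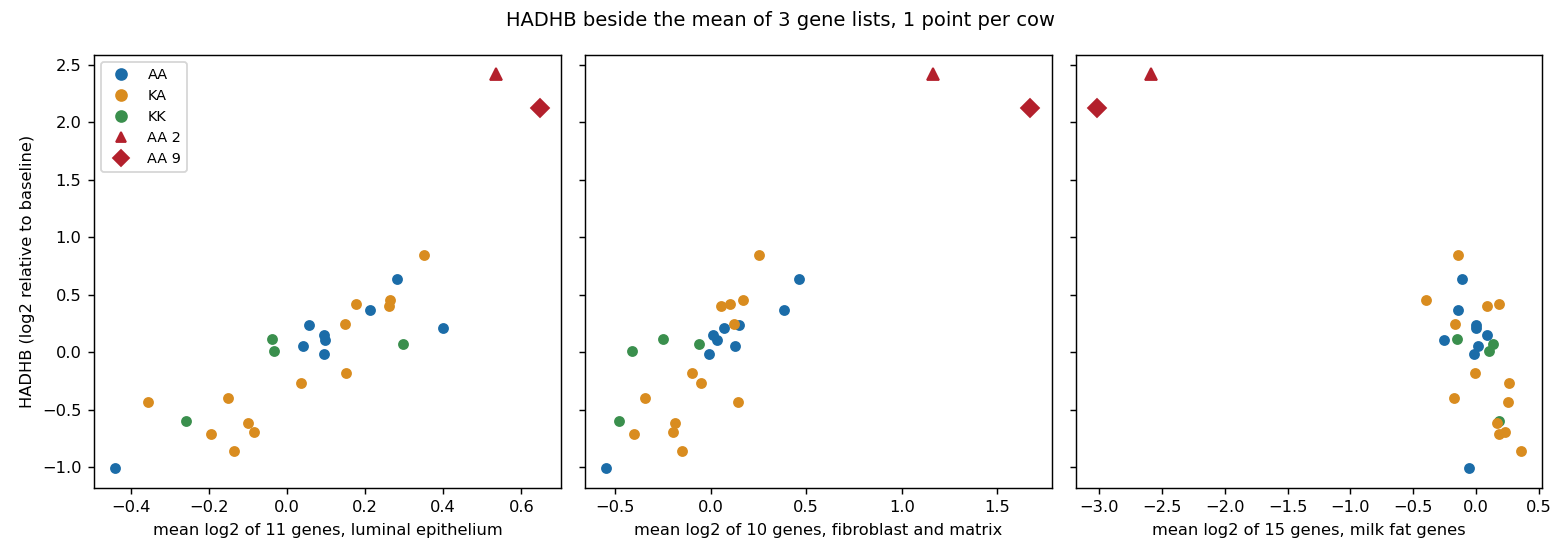
HADHB (vertical, log2 relative to baseline) against the mean log2 value of 11 luminal epithelial, 10 fibroblast and matrix and 15 milk fat genes (horizontal), 1 point per cow and coloured by genotype. Without AA 2 and AA 9 the coefficients are 0.855, 0.770 and -0.545. The pair lies at the high end of the first 2 lists and the low end of the third, by which it was picked.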

How the data were processed

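RNA of 28 mammary biopsies was measured on Affymetrix Bovine Genome Arrays, 1 per cow. The values are log2 values as the authors deposited them. The authors worked in Bioconductor 2.7 and R 2.13, per the labels' protocols, and the submitters' processing notes name both RMA and GCRMA. Which of these gave the values, and the baseline subtracted from each probe set, are not given in the sources used here, and signal over background is unknown. The 112 control probe sets were left out of 24128. The platform annotation gave 1 symbol for 13292 of the 24016 tested, several for 86 and none for 10638, and 13263 of the 13292 were found in the RefSeq table of ARS-UCD2.0. Where a gene had several probe sets, the brightest class, then the plainest type, then the identifier decided which was used.

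limma 3.58.1 in R 4.3.3 (lmFit, eBayes) was fitted to all 24016 probe sets, with a mean per genotype or a slope on K alleles, no covariate, and Benjamini-Hochberg adjustment at 0.05. Permutation tests of correlations used 100000 resamples and were two-sided. Scripts were tested on simulated data. Alternatives were other normalizations, robust variances, array weights, array number, the milk fat mean, omitted arrays, a threshold of 0.10, fewer groups or fewer probe sets. Named from each list were at most 4 genes with the smallest slope p and 4 that lay farthest outside in AA 2 and AA 9. Named as most like HADHA were the 5 genes of highest r. The members, lists and tests were chosen with earlier results of these data known. Replicate numbers follow the order of the samples and pair nothing.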

Additional observations from a re-analysis of the deposited data

Results flagged for a closer look

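The value of HADHB in KK 1 was -0.60, far from the 0.01, 0.08 and 0.12 of the other 3 KK cows. Its distance to the nearest of them was 0.849 of the range of the group, above Dixon's 95% critical value of 0.829 for 4 samples. Chance gives such a value in about 1 of 20 groups, and the 9 members were each examined in KK. AA and KA hold more than 10 arrays and were not examined this way. KK 1 was also the lowest of the KK cows in HADHA (-0.12), in the luminal epithelial list (mean -0.26) and in the fibroblast and matrix list (mean -0.48). Without KK 1 the slope of HADHB stayed below 0.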

How the results depend on the processing

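No member passed the adjusted threshold of limma under any alternative run, a threshold of 0.10 included, so the counts of 0 stood throughout. Some of the 24016 probe sets did pass, most in KA minus AA. Without AA 1, 261 passed upward and 264 downward there, and with array weights 62 and 42. At a threshold of 0.10 in the main fit 12 passed in KA minus AA. HADHB kept its direction in the slope, in KK minus AA and in KA minus AA under all of them, at -0.46 to -0.25, -0.73 to -0.39 and -0.77 to -0.43 over the omission of single arrays. With the milk fat covariate these were -0.05, -0.07 and -0.11, with array weights -0.18, -0.24 and -0.39, with quantile normalization -0.24, -0.36 and -0.44, and without AA 2 and AA 9 -0.12, -0.18 and -0.22. Its unadjusted call in KA minus AA was lost without AA 2 and AA 9 and with the milk fat covariate (0 members). With that covariate 902 of the 24016 probe sets were called upward in this contrast and 684 downward. In the low milk fat arrays, quantile normalization left 0 members below and 1 above. The correlation of HADHA with HADHB was 0.624 and 0.653 under the other normalizations, 0.744 over 28 arrays and 0.551 to 0.674 without single arrays. Averaging several probe sets of a gene gave no other value, since each member had 1. No paired analysis was possible because the labels carry no replicate numbers.

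Small estimates changed sign. In the slope these were CPT2 (-0.00183 with array medians at 0), HADHA (0.0117 with array weights, 0.0391 with the milk fat covariate, 0.0121 without AA 2 and AA 9), ECHS1 (-0.0118, -0.0149 and -0.00167 under the same 3) and ACAA2 (0.00836 with the milk fat covariate). In KK minus AA they were ACADM (-0.0193 with array numbers in 2 blocks, -0.0796 with array number as covariate), HADHA (0.029 with the milk fat covariate), ACAA2 (0.0286 with it) and ECHS1 (-0.00599 with quantile normalization, -0.0411 with array weights, -0.0233 with the milk fat covariate, -0.000787 without AA 2 and AA 9). In KA minus AA they were CPT2 (0.0111 with quantile normalization, 0.0262 with weights, 0.00391 with array number, 0.0223 with milk fat, 0.0126 without the pair), HADHA (0.0367 with quantile normalization, 0.0587 with weights, 0.142 with milk fat, 0.0953 without the pair), ACADVL (0.0152 with milk fat), ACADS (-0.0198 with milk fat) and ECHS1 (-0.0287 with milk fat, -0.00656 without the pair). The cause was not tested.

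Over single omissions the sign changed in the slope of CPT2 (-0.014 to 0.0211) and ECHS1 (-0.0137 to 0.0568), in KK minus AA of CPT2 (-0.0351 to 0.0451), ACADM (-0.061 to 0.178) and ECHS1 (-0.0727 to 0.138), in KA minus AA of CPT2 (-0.0315 to 0.0181), ACADVL (-0.0529 to 0.0421) and HADHA (-0.0919 to 0.0594), and in KK minus KA of HADHB (-0.0332 to 0.207).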
